A study of Rattus norvegicus with 63 samples.

Results

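The growth factor receptors EGFR, MET and IGF1R were measured by antibody in rat liver lysates on reverse-phase protein arrays. On such an array the lysate of each liver is spotted and probed with 1 antibody at a time. Every analyte, total or phosphorylated, that carries the symbol EGFR, MET or IGF1R was taken, which gave 7 of the 158 analytes. EGFR contributed 4 of them, the total protein and 3 phosphorylated forms named EGFR_P-Y1045, EGFR_P-Y1068 and EGFR_P-Y845. MET contributed 2, the total protein and MET_P-Y1349, and IGF1R was measured only as total protein.

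EGFR binds epidermal growth factor and transforming growth factor alpha, MET binds hepatocyte growth factor, and IGF1R binds the insulin-like growth factors. All of them are receptor tyrosine kinases: ligand binding brings receptor chains together, they phosphorylate tyrosines on each other, and the phosphotyrosines recruit adaptors that start the RAS and ERK, PI3K and AKT, and STAT arms. In the liver EGFR and MET are the main receptors through which hepatocytes receive the growth signals of regeneration, while IGF1R is known to be low in mature hepatocytes. Of the measured EGFR sites, Y845 is a target of SRC kinases, Y1045 is the docking site of the ubiquitin ligase CBL, and Y1068 binds the adaptor GRB2. MET Y1349 belongs to the docking site in the tail of the receptor.

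The series asked which molecular changes mark non-genotoxic liver carcinogens after short treatment. It holds livers of 63 male Wistar Hanover rats, 8 to 10 weeks old at the start and dosed by gastric gavage, in 21 groups of 3. Of these, 45 animals received 1 of 15 compounds and 18 received vehicle. The 3 animals of a treated group were those that the study chose from a larger group because their livers showed histopathological change, so they are not a random draw. Every comparison below sets the 3 animals of a compound against the 3 vehicle animals that carry the same control group number in the labels.

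Control set 1 (methylcellulose, 14 days) served 6 compounds. They were Acetamide (AA, 3000 mg/kg/day, 14 days), Dehydroepiandrosterone (DHEA, 600 mg/kg/day, 14 days), Methylcarbamate (Mcarb, 400 mg/kg/day, 14 days), Methapyrilene HCl (MPy, 60 mg/kg/day, 7 days), Thioacetamid (TAA, 19.2 mg/kg/day, 7 days) and Wy-14643 (Wy, 60 mg/kg/day, 3 days). Control set 2 (methylcellulose, 14 days) served Cefuroxime (CFX, 250 mg/kg/day, 14 days) and Nifedipine (Nif, 3 mg/kg/day, 14 days). Control set 5 (methylcellulose, 14 days) served Ethionine (ETH, 200 mg/kg/day, 14 days), Diethylstilbestrol (DES, 10 mg/kg/day, 3 days) and Piperonylbutoxide (PBO, 1200 mg/kg/day, 3 days). Control set 6 (methylcellulose, 14 days) served Phenobarbital sodium (PB, 14 days, no dose in the labels). Control set 3 (corn oil, 7 days) served C.I Direct Black (CIDB, 146 mg/kg/day, 7 days) and Dimethylnitrosamine (DMN, 4 mg/kg/day, 7 days), and control set 4 (corn oil, 14 days) served Cyproterone acetate (CPA, 100 mg/kg/day, 14 days). By these labels 5 compounds (MPy, TAA, Wy, DES and PBO) were compared with animals of another treatment length, whereas the study's methods call its controls time-matched. If the labels hold, time and treatment cannot be told apart for those compounds. The study classed AA, DES, DHEA, ETH, Mcarb, MPy, PB and PBO as non-genotoxic carcinogens (NGC), CIDB and DMN as genotoxic carcinogens (GC), CFX and Nif as non-carcinogens (NC), and left CPA, TAA and Wy undefined.

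Signals are relative fluorescence intensities (RFI), which have no absolute scale and cannot be set against each other between antibodies as amounts of protein. The median RFI of an animal over all analytes ranged from 0.425 to 0.882, and the highest was animal 1 of control set 6. The hepatocyte factor HNF4A was measured in every animal, at an RFI between 1.07 and 2.93. No marker of bile duct, stellate, immune or endothelial cells among those looked for was on the array. A lower signal in whole liver cannot tell fewer cells of a type from less protein per cell.

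Total MET and IGF1R gave mid-range signals, whereas the EGFR forms were among the dimmest on the array. The median RFI over 63 animals was 0.668 for IGF1R, rank 72 from the brightest of 158, and 0.520 for MET, rank 81. Total EGFR had a median of 0.174 (rank 139). EGFR_P-Y845 had 0.229 (rank 126), EGFR_P-Y1045 had 0.123 (rank 149) and EGFR_P-Y1068 had 0.0901 (rank 157), next to the bottom of the array. MET_P-Y1349 had 0.234 (rank 125). All 7 analytes were above 0 in all 63 animals. Among the 18 controls the coefficient of variation lay between 18.3% and 21.6% for the other 6 analytes and reached 37.2% for MET.

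**Figure D1:**
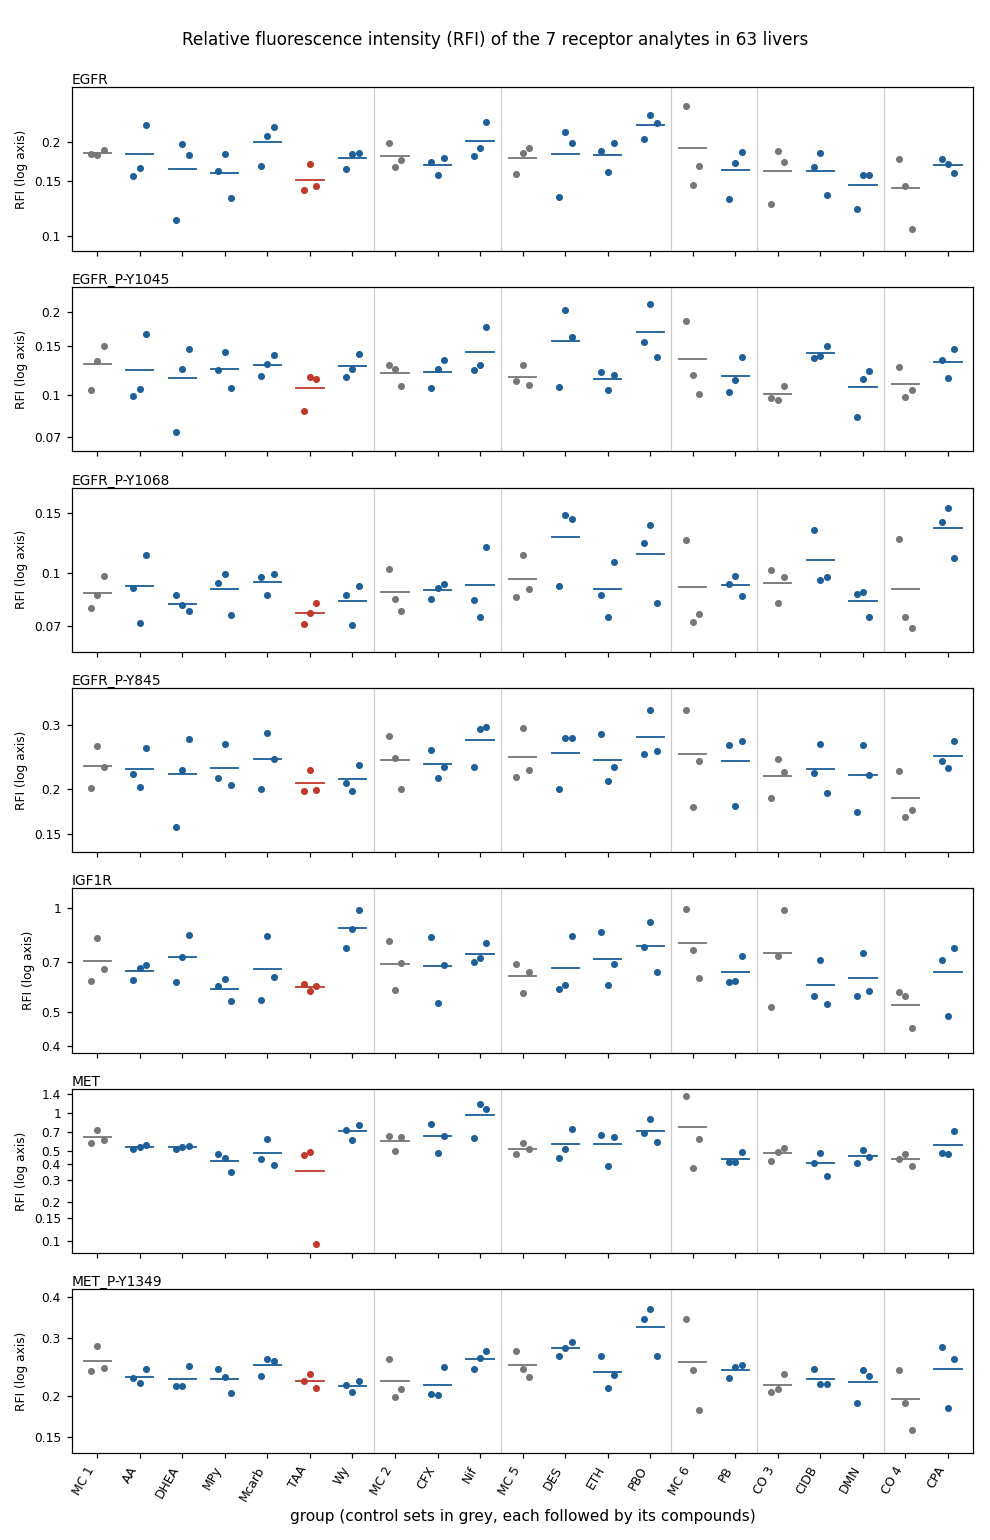
RFI of each of the 7 analytes (y axis, log scale) in the 3 animals of each of 21 groups (x axis). Points are animals, lines are arithmetic means of the 3, control sets are grey (MC, methylcellulose; CO, corn oil), TAA is red and the other compounds are blue. The MET signal of 1 TAA animal, 0.0946, lies apart from all others, and 1 animal of MC 6 is high for all 7 analytes.

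For every receptor form the 21 groups were ordered by mean log2 RFI. Among so many ordered means most gaps between neighbours are small whether or not groups differ. Small gaps therefore do not show that groups are alike, and the within-group SD used beside them is that of single animals. Total EGFR ran from corn oil control set 4 (RFI 0.142 ± 0.0352, SD, n = 3) to PBO (0.226 ± 0.0200), a 1.62-fold range. In that order none of the 20 gaps between neighbours exceeded the within-group SD of 0.24 on the log2 scale. IGF1R ran from the same control set (0.526 ± 0.0662) to Wy (0.874 ± 0.111), a 1.66-fold range, again with no gap above the within-group SD. The same held for the 3 phosphorylated EGFR forms, whose ranges were between 1.47-fold and 1.75-fold. MET had the widest span, 3.31-fold, from TAA (0.350 ± 0.221) to Nif (0.951 ± 0.276). Its single gap above the within-group SD of 0.44 was the step of 0.52 from TAA to the next group, CIDB. MET_P-Y1349 ran from control set 4 to PBO over 1.67-fold, also with 1 gap above its SD of 0.19.

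Of the 105 comparisons (7 analytes, 15 compounds), 1 passed a limma test with Benjamini-Hochberg adjustment over all 158 analytes at an adjusted p below 0.05. This was lower MET in TAA. Over all analytes 3.16% of 2370 comparisons passed; the receptor share is read against that background. At an unadjusted p below 0.05 there were 5 receptor comparisons, 4 higher and 1 lower, against 10.7% of all comparisons. The 3 treated animals lay wholly outside the range of their 3 controls in 14 of the 105 comparisons (6 higher, 8 lower), against 16.1% of comparisons over the whole array. For the compounds in which a receptor form did so, the same share counted over all analytes came to 6.96% in AA, 25.9% in DHEA and in TAA, 20.9% in MPy, 27.8% in Wy, 21.5% in PBO, 23.4% in CIDB and 19% in CPA. No EGFR or IGF1R form was called by limma in any compound, with 3 EGFR values and 0 IGF1R values at an unadjusted p below 0.05.

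TAA is a hepatotoxin that is bioactivated in the liver. Total MET had RFIs of 0.466, 0.489 and 0.0946 in the 3 TAA animals and of 0.583, 0.730 and 0.607 in their controls. All TAA animals were below all controls, but 1 of them, at 0.0946, was far below the other pair and was the lowest of all 63 animals, the next lowest being 0.323. The log2 fold change was -1.20 (SE 0.35, 95% interval -1.90 to -0.49, limma adjusted p = 0.0431). Without that animal it was -0.42 with an adjusted p of 0.797, so 1 liver decides the call. Leaving out a control animal instead kept the size (-1.10 to -1.26) but also ended the call, with adjusted p between 0.0880 and 0.241. In each of those fits 0 of the 158 analytes were called in TAA. With all animals 3.16% of the 158 analytes were called in TAA, MET among them.

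The same liver had RFIs of 0.144 for EGFR, 0.597 for IGF1R and 0.212 for MET_P-Y1349, each below all 3 controls but near the other TAA animals. The animal's median RFI over all analytes was 0.504, rank 15 from the lowest of 63, and MET was the 1 analyte for which it had the lowest signal of all animals. The authors' own series table holds a log2 ratio for each animal. For this animal it gives MET a value of 0.02, while the RFI divided by the median of the labelled controls gives -2.68. The difference between both sources was -2.70 there and lay between -0.76 and 1.01 in the other 62 animals. For TAA animals 1 and 2 the series table gave 0.01 and -0.33, beside -0.38 and -0.31 from the RFI. On the series table the MET log2 fold change in TAA was -0.22 (limma adjusted p = 0.976).

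**Figure D2:**
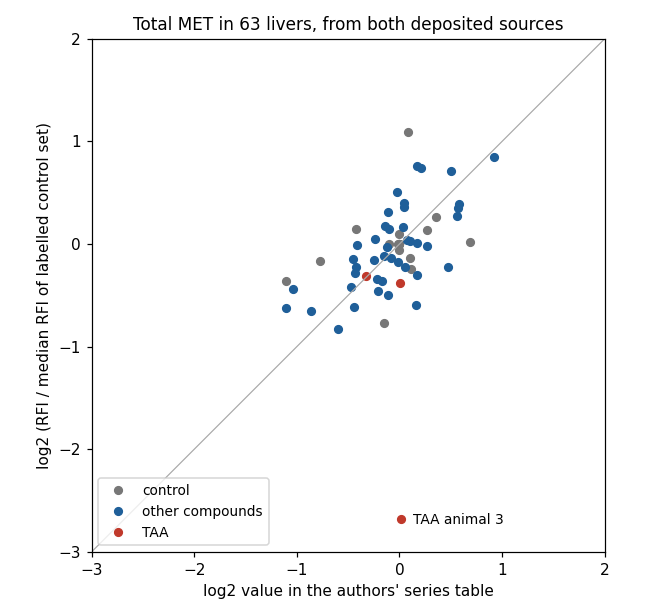
Total MET in 63 livers: the log2 ratio of RFI to the median of the labelled control set (y axis) against the log2 value in the authors' series table (x axis), with the line of equality. Each point is 1 liver, with controls grey, TAA red and other compounds blue; TAA animal 3 is at -2.68 on one scale and 0.02 on the other.

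The other receptor forms in TAA leaned the same way without passing the test. All 7 had a log2 fold change below 0, with a median of -0.23 beside -0.16 over all analytes. Total EGFR had RFIs of 0.140, 0.169 and 0.144 in TAA against 0.182, 0.182 and 0.187 in controls, and the groups did not overlap (log2 fold change -0.29, SE 0.20, adjusted p = 0.747). IGF1R had 0.602, 0.578 and 0.597 against 0.617, 0.818 and 0.668, also without overlap (-0.23, SE 0.20, adjusted p = 0.748). The animal medians of the whole array moved in the same direction, from between 0.570 and 0.637 in control set 1 to between 0.492 and 0.507 in TAA. Once every animal was centred on its own median, the TAA values were -0.04 for EGFR and 0.02 for IGF1R, and MET stood at -0.94 (adjusted p = 0.0765), where 1.27% of all analytes were called. With centring and without TAA animal 3 the MET value was -0.16 (adjusted p = 0.822). Of the 7 hepatocyte marker analytes measured, 1 was called lower in TAA and none higher. Glutamine synthetase (GLUL), which marks hepatocytes around the central vein, had RFIs from -1.86 to 0.0615 in TAA and of at least 0.792 in controls (adjusted p = 0.0353, with the 2 TAA animals at or below 0 left out of the fit). The other 6 were not called, with log2 fold changes from -1.20 for CYP2C8 to 0.01 for CYP2E1_1, and -0.23 for HNF4A. Their part in the MET result was not tested.

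In PBO, an inhibitor of cytochrome P450 enzymes, all 7 receptor forms were above the control mean and none was called. Their median log2 fold change was 0.35, beside 0.15 over all analytes. After centring on animal medians it was 0.20, with values from 0.04 for EGFR_P-Y845 to 0.37 for EGFR_P-Y1045. On the authors' series table not every form was higher. There EGFR_P-Y845 had -0.32, -0.05 and -0.18 in PBO against 0.22, 0 and -0.30 in controls. MET_P-Y1349 had 0.66, 0.47 and 0.34 against 0.27, -0.37 and 0. Total EGFR had RFIs of 0.204, 0.244 and 0.229 against 0.157, 0.184 and 0.190 in controls, so that every PBO animal was above every control (log2 fold change 0.35, SE 0.20, adjusted p = 0.341). EGFR_P-Y1045 had 0.156, 0.214 and 0.138 against 0.112, 0.128 and 0.108, again without overlap (0.52, SE 0.22, adjusted p = 0.192). MET_P-Y1349 had 0.343, 0.368 and 0.265 against 0.275, 0.242 and 0.229, where the lowest PBO animal fell within the control range (0.38, SE 0.16, adjusted p = 0.189). Total MET had 0.688, 0.884 and 0.590 against 0.475, 0.577 and 0.522, without overlap (0.44, SE 0.35, adjusted p = 0.543). The MET_P-Y1349 value moved with the animals entered: it was 0.41 and passed against all 12 methylcellulose animals (adjusted p = 0.0259, with 12% of all analytes called). Leaving out 1 animal gave from 0.28 (adjusted p = 0.658, without PBO animal 2) to 0.52 (adjusted p = 0.0453, without PBO animal 3). Of the hepatocyte markers, only CYP1A2_1 was called in PBO, and it was higher (2.47, adjusted p = 1.53e-10). CYP1A2_2, which carries the same symbol, was at 0.26 (adjusted p = 0.521). The uncalled markers ran from -1.92 for GLUL, with values at or below 0 left out, to 0.92 for CYP2E1_2. Their part was not tested.

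CPA is a steroidal antiandrogen. EGFR_P-Y1068 had RFIs of 0.141, 0.154 and 0.110 in CPA and 0.126, 0.0746 and 0.0693 in its controls. The groups overlapped through control animal 1, which was higher than the lowest CPA animal. The log2 fold change was 0.63 (SE 0.21, 95% interval 0.20 to 1.06, adjusted p = 0.0814). Without that control animal it was 0.90 with an adjusted p of 0.0048, and without control animal 3 it was 0.47 with an adjusted p of 0.528. With only the compared animals in the fit the adjusted p was 0.476, and on the authors' series table the sign was opposite, at -0.74 (adjusted p = 0.895). CPA and control animals carry the same replicate numbers, which the study's methods do not describe as pairs. With same-numbered animals as a block the limma adjusted p was 0.0615. Total MET (0.485, 0.477 and 0.720 against 0.432, 0.475 and 0.386) and EGFR_P-Y845 (0.239, 0.228 and 0.272 against 0.225, 0.167 and 0.175) lay above all controls, with changes of 0.36 and 0.39 that were not called. All 7 receptor forms were above the control mean in CPA, with a median of 0.30, and so was the median of all analytes, 0.23. After centring on animal medians EGFR_P-Y1068 was at 0.41 (adjusted p = 0.298). Of the hepatocyte markers, only CYP2C8 was called in CPA, and it was higher (1.77, adjusted p = 0.00266). The uncalled markers ran from -1.34 for GLUL to 0.77 for CYP2E1_2, both with values at or below 0 left out. Their part was not tested.

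CIDB is an azo dye. EGFR_P-Y1045 had RFIs of 0.137, 0.139 and 0.150 in CIDB against 0.0973, 0.0960 and 0.108 in controls. Every CIDB animal was above every control. The difference on the log2 scale was 0.50 (SE 0.22) and missed the threshold at an adjusted p of 0.230; centring left it at 0.45 (adjusted p = 0.0654). Total EGFR was level in the same livers, at 0.166, 0.184 and 0.135 against 0.126, 0.186 and 0.172 (0.01, SE 0.20). EGFR_P-Y845 and EGFR_P-Y1068 had log2 fold changes of 0.06 and 0.21 and overlapped with controls. Both genotoxic carcinogens shared control set 3, and in DMN the value of EGFR_P-Y1045 was 0.06. Of the 7 hepatocyte marker analytes, 2 were called lower in CIDB, HNF4A (-0.54, adjusted p = 0.0382) and GLUL (-3.89, adjusted p = 0.000172). Of all analytes 7.59% were called in CIDB. The uncalled markers ran from -0.93 for CYP2C8 to 0.23 for CYP2E1_2. Their part in the EGFR_P-Y1045 values and in its ratio below was not tested.

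**Figure D3:**
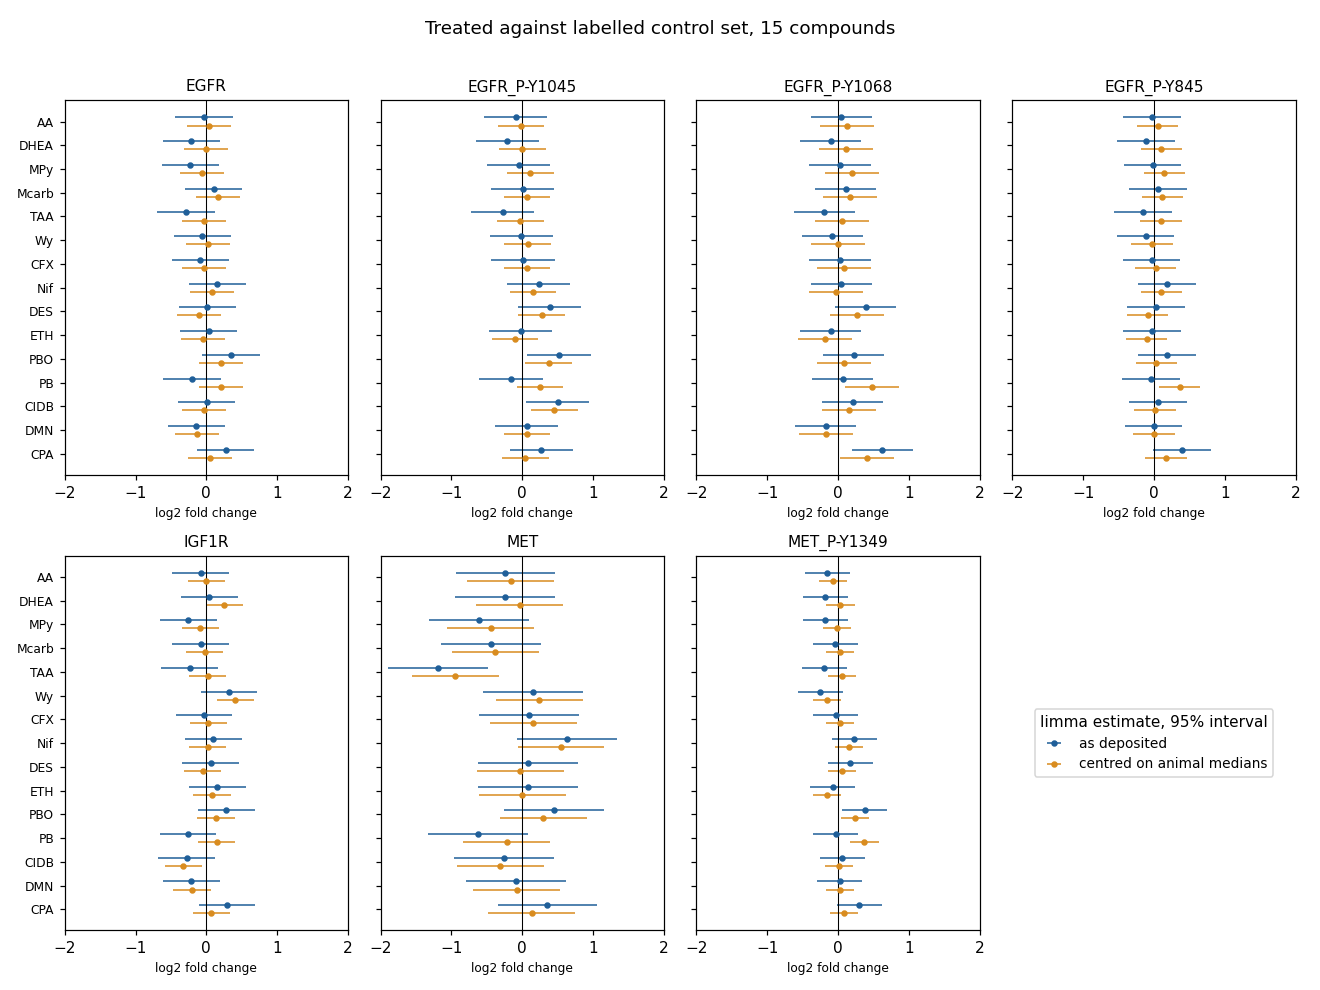
Log2 fold change of each of the 7 analytes (x axis) for 15 compounds (y axis, grouped by control set), as limma estimates with 95% intervals, from RFI as deposited (blue) and after each animal was centred on its own median (orange). The only uncentred interval that goes with a call is that of MET in TAA. Centring moves the points of all 7 analytes of a compound by the same amount, which is to the right in PB.

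IGF1R had no call in any compound on RFI as deposited. Its 15 log2 fold changes ran from -0.28 in CIDB to 0.32 in Wy, and the smallest adjusted p was 0.357, in PB. In Wy, an agonist of the nuclear receptor PPARA, IGF1R had RFIs of 0.765, 0.870 and 0.986 against 0.617, 0.818 and 0.668 in controls, so the highest control lay above the lowest Wy animal. The change was 0.32 (SE 0.20, adjusted p = 0.503). After centring it was 0.41 (SE 0.13) and passed the test with an adjusted p of 0.0259, where 14.6% of all analytes were called in Wy after centring. MET_P-Y1349 was lower in the same livers, at 0.217, 0.206 and 0.222 against 0.239, 0.284 and 0.243, without overlap (-0.25, SE 0.16, adjusted p = 0.503). Of the hepatocyte markers, GLUL (-3.73, adjusted p = 0.00149, with values at or below 0 left out) and CYP1A2_1 (-0.82, adjusted p = 0.0310) were called lower in Wy. The uncalled markers ran from -1.16 for CYP2C8 to -0.10 for CYP2E1_1. Their part was not tested.

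In PB, which activates the nuclear receptor CAR, the receptor values depended on 1 control liver. Animal 1 of control set 6 had the highest MET signal of all 63 animals, 1.34, beside 0.367 and 0.627 in the other controls of the set. The PB animals had 0.415, 0.411 and 0.490. The log2 fold change of MET was -0.63 (SE 0.35, adjusted p = 0.245), -0.22 after centring and -0.13 without that control animal. For MET_P-Y1349 the RFIs were 0.227, 0.245 and 0.249 in PB against 0.343, 0.240 and 0.181, which gave -0.04 as deposited (SE 0.16) and 0.37 after centring (SE 0.10, adjusted p = 0.0121). In PB 5.7% of all analytes were called after centring. Without control animal 1 the uncentred value was 0.20 (adjusted p = 0.809). Its sign and its call thus depended on the scaling. Of the hepatocyte markers, only HNF4A was called in PB, and it was lower (-0.59, adjusted p = 0.0350). The uncalled markers ran from -2.54 for GLUL, with values at or below 0 left out, to 0.43 for CYP2C8. Their part was not tested. The median log2 fold change of all analytes in PB was -0.29. After centring, 3.92% of all comparisons were called, 2 of the 105 receptor comparisons among them (MET_P-Y1349 in PB and IGF1R in Wy), and MET in TAA was not.

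Total MET was also outside the control range in several compounds in which it was not called. It lay below all controls in AA (0.520, 0.543 and 0.561), DHEA (0.522, 0.538 and 0.553) and MPy (0.480, 0.442 and 0.342), all set against the same control animals as TAA. The log2 fold changes were -0.24, -0.25 and -0.61, each with an SE of 0.35 and an adjusted p of at least 0.689. These 3 compounds and TAA share the control animals, so the 4 values are not independent of one another. The highest mean belonged to Nif, a calcium channel blocker, with 0.637, 1.16 and 1.06 against 0.654, 0.503 and 0.645. There 1 animal lay within the control range (0.63, SE 0.35, adjusted p = 0.941).

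A comparison of 3 animals with 3 left wide intervals. The unadjusted 95% interval of a log2 fold change reached 0.40 to either side of the estimate for EGFR and for IGF1R, a factor of 1.32. It reached 0.32 for MET_P-Y1349, a factor of 1.25, and 0.71 for MET, a factor of 1.63. Tested over the 15 comparisons jointly with a limma F test, no receptor form passed, with MET closest (unadjusted p = 0.0381, adjusted p = 0.163), while 18.4% of all analytes did. After centring MET_P-Y1349 passed (adjusted p = 0.0235), against 24.1% of all analytes.

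The ratio of a phosphorylated form to total receptor in the same liver removes a factor common to both signals. It was computed for the 3 EGFR sites and the MET site, and 48 such ratios were tested over the array. Of the 60 receptor comparisons 1 was called, EGFR_P-Y1045 over EGFR in CIDB. The log2 ratios were -0.28, -0.40 and 0.16 in CIDB against -0.38, -0.96 and -0.67 in controls. CIDB animal 3 was highest and CIDB animal 2 lay just below the highest control, so the groups overlapped. The difference was 0.49 (SE 0.16, 95% interval 0.17 to 0.81, limma adjusted p = 0.0146). In CIDB 37.5% of all 48 ratios were called, which is the background for this value, and over all compounds the share was 6.67%. Without CIDB animal 3 the difference was 0.33 and its adjusted p was 0.168, and without control animal 5 it was 0.35 with an adjusted p of 0.143.

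In DES, a synthetic estrogen, 14.6% of the 48 ratios were called and none of them was a receptor ratio. The ratio of EGFR_P-Y1045 was -0.32, -0.08 and -0.28 in DES against -0.49, -0.52 and -0.81 in controls (difference 0.38, SE 0.16, adjusted p = 0.106). EGFR_P-Y1068 over EGFR was -0.54, -0.54 and -0.45 against -0.88, -0.71 and -1.08 (0.38, SE 0.21, adjusted p = 0.309). Against all 12 methylcellulose animals the latter was 0.50 and passed (adjusted p = 0.0222), where 18.8% of the 48 ratios did. Of the hepatocyte markers, only GLUL was called in DES, and it was lower (-2.77, adjusted p = 0.0217). The uncalled markers ran from -0.35 for CYP1A2_1 to 0.97 for CYP2E1_2. Their part was not tested. In TAA the ratio of MET_P-Y1349 to MET was -1.06, -1.06 and 1.16 against -1.29, -1.36 and -1.32. The high value belonged to the animal with the low total MET signal, while its MET_P-Y1349 RFI of 0.212 was close to the 0.223 and 0.234 of the other TAA animals. The difference was 1.00 (SE 0.32, adjusted p = 0.116), and without that animal 0.26 (adjusted p = 0.925).

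**Figure D4:**
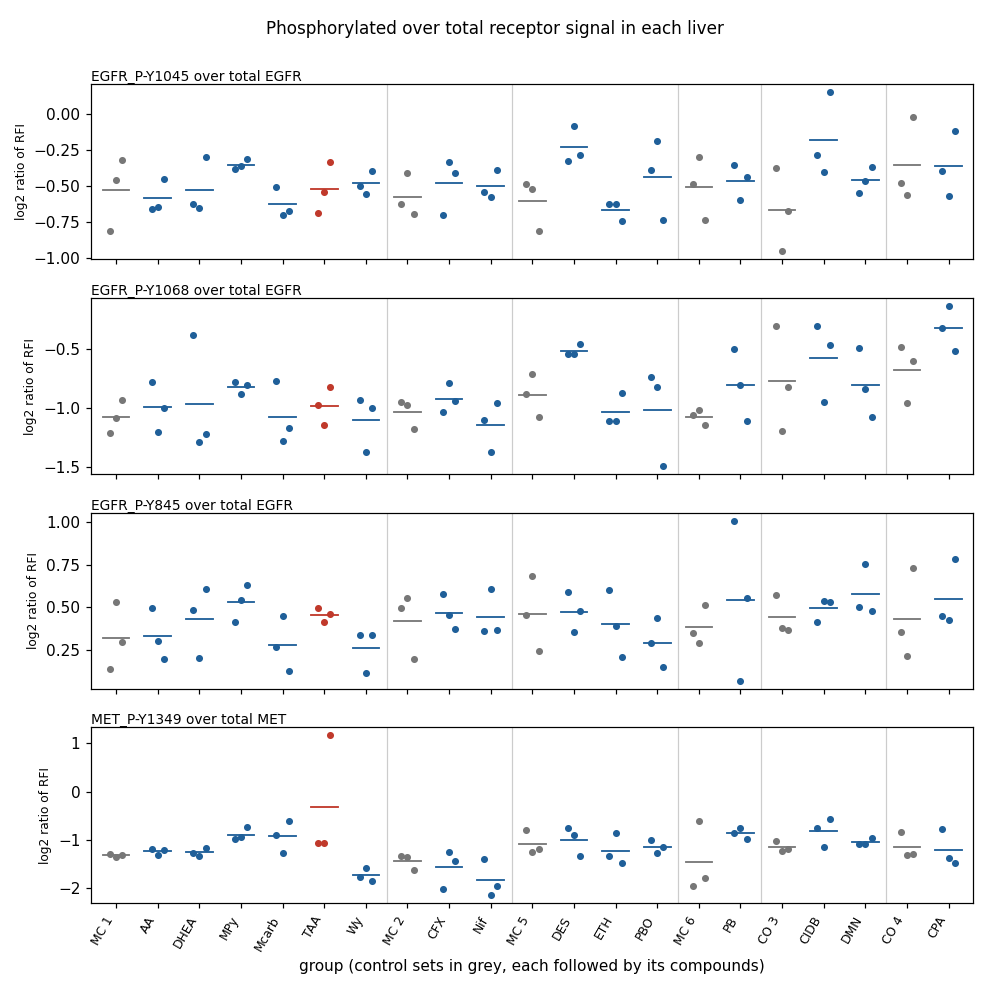
Log2 ratio of phosphorylated to total receptor signal (y axis) in the 3 animals of each of 21 groups (x axis), for 3 EGFR sites and 1 MET site. Points are animals, lines are means of the 3, and control sets are grey. CIDB animal 3 has the highest EGFR_P-Y1045 ratio, 0.16, and TAA animal 3 has a MET_P-Y1349 ratio of 1.16, while the other animals of that panel are all below 0.

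The class contrasts asked whether carcinogen classes differ. The compound was the unit here, and 8 NGC, 2 GC and 2 NC compounds entered. None of 21 comparisons passed the adjusted limma test, against 1.90% of all analytes for NGC minus GC and 0.633% for each contrast with NC, and 1 was below an unadjusted p of 0.05. That was MET, whose mean log2 fold change was -0.19 ± 0.37 (SD, n = 8) in the NGC group, -0.17 in the GC group and 0.36 in the NC group. The NC mean came from Nif at 0.63 and CFX at 0.10. Compounds of a class share control sets and are not independent: both NC compounds share set 2, both GC compounds set 3, 4 NGC compounds set 1 and 3 NGC compounds set 5. The difference of all carcinogens minus NC was -0.55 (SE 0.25, limma unadjusted p = 0.0494, adjusted p = 0.597). It was -0.29 without Nif and -0.82 without CFX, so each NC compound moved it. After centring on animal medians the difference was -0.49 (limma adjusted p = 0.216). It was -0.53 against all controls of the vehicle (adjusted p = 0.414) and -0.68 on the authors' series table (adjusted p = 0.0610), so it passed in none of these settings.

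Control sets of the same vehicle gave the background of these comparisons. There were 7 such pairs of sets, and in their 49 receptor comparisons none was called by limma and 1 was below an unadjusted p of 0.05, while 0.0904% of the 1106 such comparisons over all analytes were called. The exception was IGF1R, higher in corn oil control set 3 than in set 4 by 0.46 on the log2 scale (adjusted p = 0.342). The RFIs were 0.519, 0.725 and 0.987 in set 3 and 0.573, 0.556 and 0.451 in set 4. Those sets also differ in time, 7 and 14 days.

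Within groups the receptor signals of a liver rose and fell together. Over 63 animals, as deviations from their group means, Spearman correlations between pairs of the 7 analytes ran from 0.16 for EGFR_P-Y1068 with IGF1R to 0.72 for EGFR with EGFR_P-Y1045. IGF1R and MET had 0.70. The same deviations correlated with those of the animal's median over all analytes, from 0.44 for EGFR_P-Y1068 to 0.81 for MET_P-Y1349. After centring, EGFR kept 0.47 with EGFR_P-Y1045 and 0.48 with EGFR_P-Y845, IGF1R and MET had 0.32, and MET had -0.07 with MET_P-Y1349. These values describe animals measured with the same antibodies on the same array type and carry no p.

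The analytes most like each receptor form across all 63 centred values came from within and from outside receptor signaling. No share over the array was set beside them, so nothing is read from their kind. For EGFR they were PRKACA_P-T197, a site of protein kinase A (rho 0.59), PDK1 (0.55) and EGFR_P-Y1045 (0.52). For EGFR_P-Y1045 they were PRKACA_P-T197 (0.80), MAP3K7_P-S412 (0.78) and PDK1 (0.78), and for EGFR_P-Y1068 they included JUN (0.63) and acetylated histone HIST1H3A_A-K18 (0.63). For EGFR_P-Y845 they were ERBB2_P-Y877, a site in the receptor that pairs with EGFR (0.53), MYC_P-T58/S62 (0.50) and CDKN1B (0.48). For IGF1R they were PON3 (0.63), HDAC2 (0.57) and PIK3R1, the regulatory subunit of PI3K (0.52). For MET they included IGF1R (0.37) and PON1 (0.35). For MET_P-Y1349 they included MYC_P-T58/S62 (0.57) and CYP2B6_2 (0.56).

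The RFI and the authors' series table did not carry the same information for every receptor form. Over the 45 treated animals, log2 deviations from the group mean were correlated between an analyte and its own name in the series table. The median correlation was 0.555 over 158 analytes. It compares the spread between animals of a compound and not their change from control. MET (0.592), IGF1R (0.549) and EGFR_P-Y845 (0.545) were near that median. Only MET was closest to its own name. IGF1R was closest to the series table's STAT3_P-S727 (0.593) and EGFR_P-Y845 to its CDC25C (0.649). EGFR had 0.295 and EGFR_P-Y1068 had 0.245, and MET_P-Y1349 (0.094) and EGFR_P-Y1045 (0.067) had next to none. For MET_P-Y1349 and EGFR_P-Y1068 the RFI was closest to the series table's HIST1H3A_TM-K27 (0.681 and 0.559), and for EGFR and EGFR_P-Y1045 to its RPS6_2 (0.634 and 0.675). Whether analyte names differ between both sources was not settled here. The values of all receptor forms, MET included, therefore rest on the RFI and on its names. For MET the sources parted at the call in TAA, with -1.20 on RFI and -0.22 on the series table.

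Relatives and downstream partners of the receptors were taken as a list. It had 28 of 67 symbols on the array, with 48 analytes and 720 comparisons, and 9 were called higher and 15 lower. This is close to the share over the whole array, 3.16%, so nothing is read from it about the list. These calls were in the RAS and ERK arm (5 higher, 7 lower), the STAT arm (4 higher, 2 lower) and the PI3K, AKT and MTOR arm (6 lower). The receptor relatives, the adaptors with the IGF axis, and the feedback proteins had none by limma, with 3, 2 and 3 comparisons at an unadjusted p below 0.05. The 15 lower calls came mainly from MAPK3_P-T202/Y204, the activating site of an ERK kinase, and from RPS6_P-S235/S236, a readout of S6 kinase activity; both are named here after their values were seen. In TAA, the compound with the called receptor, none of the 48 analytes was called, 1 was at an unadjusted p below 0.05, and their median log2 fold change was -0.16, as for all analytes. In CIDB, where the EGFR_P-Y1045 ratio was called, 3 were higher (STAT3, STAT3_P-Y705 and the transcription factor JUN) and 1 lower (MAPK3_P-T202/Y204), where 7.59% of all analytes were called; these were named after their values were seen. In PBO 1 was higher and 2 were lower, beside 6.33% of all analytes, and in CPA 1 was higher, beside 5.06%.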

How the data were processed

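The authors spotted lysates of 63 livers on ZeptoMARK reverse arrays and read 158 antibodies by fluorescence. Per the file headers the values used are relative fluorescence intensity (RFI) for each animal and analyte. The study's methods describe subtraction of local background, normalization over the whole array beside a labelled reference protein, and averaging of replicate spots. A series table by the authors served as an alternative: blank-corrected signals divided by the median of the corresponding controls, as log2, with missing values imputed. RFI was log2-transformed without further scaling, values at or below 0 (25 of 9954, none in a receptor analyte) were missing, and 21 group means were fitted over 63 animals with limma 3.58.1 in R 4.3.3 (lmFit, eBayes). Tests are two-sided, adjusted by Benjamini-Hochberg over the 158 analytes, or 48 ratios, of each comparison, and called at 0.05. Nothing says that animals of a group were processed apart, so p-values cover the spread between these samples, and the number of animals limits precision. Same-numbered CPA and control animals deviated weakly together (r 0.307, 0.219 and 0.159), whereas PB and its controls hardly did. The study's methods name no pairs, so the replicate block served only as an alternative setting. The receptors, the lists of pathway genes and markers, and the genes named with them (all receptor analytes, and the 3 analytes most correlated with each, of which some are not reported here) were chosen with earlier results of these data known.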

Additional observations from a re-analysis of the deposited data

How the results depend on the processing

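Lower MET in TAA was called under 5 of 13 alternative settings, with adjusted p from 0.0052 to 0.976. Its log2 fold change was -0.94 after centring on animal medians, -1.20 with a fit of only the compared animals and -1.20 with values at or below 0 set to the smallest positive RFI, each with 0 receptor analytes called in TAA. Of all analytes 1.27%, 2.53% and 0% were called in TAA in those settings. The MET value was -0.22 on the series table, also with 0 called, and -0.16 with centring and without TAA animal 3, a setting chosen after seeing the data. Leaving out 1 animal gave -1.60 to -0.42 and 0 to 1 calls. Centring gave 1 call each in PB, where MET_P-Y1349 turned to 0.37, and in Wy. All controls of the vehicle gave 1 call in PBO, where 12% of all analytes were called. Leaving out 1 animal gave 0 to 1 calls in CPA and in PBO, the 1 in CPA beside 12% and the 1 in PBO beside 8.86% of all analytes. The EGFR_P-Y1045 ratio in CIDB gave 0 calls against all controls of the vehicle (22.9% of the 48 ratios called) and 0 with only the compared animals (6.25%), and 0 to 1 calls without 1 animal. The receptor ratios gave 1 call each in DES and TAA against all controls of the vehicle, beside 18.8% and 4.17% of the 48 ratios, and 0 to 1 calls in TAA without 1 animal (1 without TAA animal 1 or 2, beside 4.17% and 2.08%). Without dim analytes only MET and IGF1R remained of the receptors. Of 1286 uncalled fold changes across settings, 183 differed in sign. The replicate block for CPA and PB changed no call: 0 receptor analytes and 0 ratios were called in either compound with it, and the EGFR_P-Y1068 value in CPA stayed at 0.63. Same-numbered PB and control animals hardly deviated together (r 0.033, 0.0072 and 0.069). Having 3 animals per group limits the precision. The SE of a log2 fold change was 0.20 to 0.22 for the dim EGFR forms and 0.35 for MET.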
